A study of Rattus norvegicus with 12 samples.

Results

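Calml3, the gene of a calmodulin-like protein, and the calmodulin genes Calm2 and Calm3 were followed in the epididymal fat pad of fed and fasted rats. The members were fixed by gene symbol, and the 3 genes were chosen by the measured response to fasting of the family, Calml3 above all. Their values in the fed, phase 2 and phase 3 groups are therefore a description and carry no test. They are 3 of the 14506 genes that the array annotation ties to a probe set of 1 gene. The 3 members have 4 such probe sets among the 29215 of the array, and the brightest probe set stood for Calm2, which has a second one.

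RNA was measured on 12 Affymetrix Rat Gene 1.0 ST arrays, each holding the epididymal white adipose tissue of 1 male Sprague-Dawley rat. The rats were assigned at random to feeding (4 rats), to fasting until phase 2 (4 rats) or to fasting until phase 3 (4 rats). The labels name no transgene or drug, and neither the ages nor the lengths of the fasts are given in the sources used here. Phase 2 of a long fast is the stage at which fat is the main fuel and protein is spared, and phase 3 the later stage at which protein breakdown increases. The tissue held adipocyte RNA: the mean log2 level of 12 adipocyte markers lay between 11.64 and 11.75 in fed, 11.47 and 11.58 at phase 2 and 9.73 and 10.56 at phase 3. In a bulk sample, fewer cells of a type and less RNA per cell cannot be told apart.

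Calmodulin is a small protein with EF-hand loops that bind calcium. Loaded with calcium, it wraps around short helices of other proteins and switches on kinases, the phosphatase calcineurin, phosphodiesterases, adenylyl cyclases and nitric oxide synthases. The Calm genes each encode the same protein, so a cell's calmodulin is the sum of their products. Calml3 encodes a close relative, known mainly from epithelial cells, whose best known partner is the unconventional myosin Myo10. In fat cells calcium and calmodulin are tied to insulin-driven glucose uptake and to the control of cyclic AMP and lipolysis.

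The stretch of genome just before the start of Calml3 is shown because Calml3 is the member with the large change. It is the + strand of chr17:71331276-71331525 in GRCr8, as 250 bases of a RefSeq promoter, and capitals mark the letters of the motifs found.

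Calml3 promoter: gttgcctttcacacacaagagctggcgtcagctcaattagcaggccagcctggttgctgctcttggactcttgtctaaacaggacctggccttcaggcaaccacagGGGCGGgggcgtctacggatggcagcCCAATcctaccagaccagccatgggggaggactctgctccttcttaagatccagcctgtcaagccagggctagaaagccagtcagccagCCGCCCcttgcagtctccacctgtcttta

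The 7 motifs searched on both strands were the TATA box TATAAA, the CCAAT box CCAAT, the GC box GGGCGG, the FOXO core GTAAACA, the glucocorticoid receptor half-site AGAACA, the cyclic AMP response element TGACGTCA and the E-box CACGTG. The Calml3 window held 1 CCAAT box, which begins 118 bases before the start, and 2 GC boxes, which begin 144 and 29 bases before it, and these matches do not overlap. Of 33469 RefSeq promoter windows of the same length, 34% held a CCAAT box and 30.5% a GC box. The letters of the other motifs were not in this window, and they are in 12.9% (TATA box), 3.21% (FOXO core), 17.5% (glucocorticoid receptor half-site), 1.59% (cyclic AMP response element) and 5.59% (E-box) of all windows. These are matches of letters and not sites shown to be bound. RefSeq also lists model transcripts of Calml3, so other starts may exist. The GC content of the window was 58.4%, and the median over all windows was 51.2%.

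Calml3 was low in fed rats, high in phase 2 and in between in phase 3. In fed rats 1 to 4 its log2 level was 6.35, 6.24, 6.34 and 6.08. In phase 2 rats it was 10.02, 10.40, 10.54 and 9.81, and in phase 3 rats 8.61, 8.15, 7.01 and 6.86. Every phase 2 rat lay above every phase 3 rat, and every phase 3 rat above every fed rat. Such a gap between groups was common: over all genes it was found in 31% for phase 2 against fed, in 41.9% for phase 3 against fed and in 26.3% for phase 3 against phase 2.

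The mean of Calml3 was 6.25 ± 0.124 in fed, 10.19 ± 0.339 at phase 2 and 7.66 ± 0.855 at phase 3 (log2, SD, n = 4). The difference from fed was 3.94 ± 0.311 (SE of the model) in phase 2, or 15.4-fold, the rank 3 rise among the 14506 genes. In phase 3 the difference from fed was 1.40 ± 0.311, or 2.65-fold, at rank 223 among rises. From phase 2 to phase 3 the level was lower by 2.54 ± 0.311, or 5.81-fold, at rank 15 among falls. On the log2 scale 35.6% of the phase 2 difference was present in phase 3. Detection calls were not used here, so how far the fed level stands above background is unknown and folds against it are not exact.

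Phase 3 rats differed from one another in Calml3 more than the rats of the other groups did. Relative to the fed mean, rats 1 and 2 of phase 3 lay at 2.35 and 1.89 and rats 3 and 4 at 0.76 and 0.61. The SD within phase 3 was larger than that of 99.6% of all genes. In phase 2 it was larger than that of 97.1% and in fed rats than that of 56.7%. The adipocyte marker mean was 10.56, 9.91, 9.94 and 9.73 in phase 3 rats 1 to 4, so rat 1 was highest in both. The part of fat cell content in the spread of Calml3 was not tested.

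**Figure D1:**
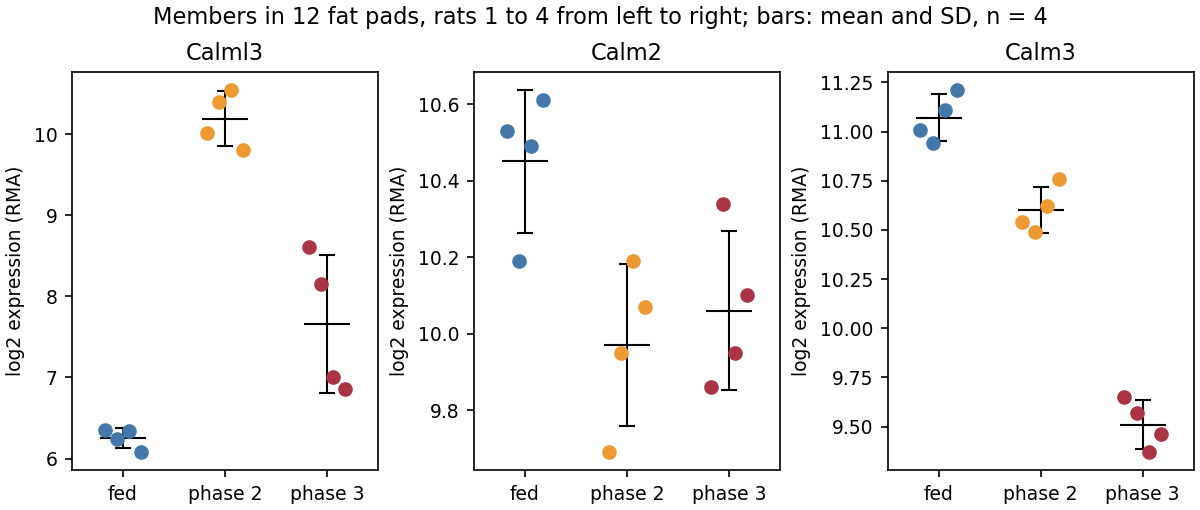
Log2 expression (RMA) of Calml3, Calm2 and Calm3 in each of the 12 rats, with dots for rats 1 to 4 from left to right within a group and bars for the mean and SD (n = 4). The vertical axes differ and do not start at 0. Calml3 is highest in phase 2 (9.81 to 10.54) and spread out in phase 3 (6.86 to 8.61), while Calm3 steps down from fed to phase 2 to phase 3.

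Calm3 was lower at each later stage. Its log2 level was 11.01, 10.94, 11.11 and 11.21 in fed rats, 10.54, 10.49, 10.62 and 10.76 in phase 2 rats and 9.65, 9.57, 9.37 and 9.46 in phase 3 rats. The 3 groups did not overlap. Such gaps were found in 31% of all genes for phase 2 against fed, 41.9% for phase 3 against fed and 26.3% between the phases. Every fed rat lay above every phase 2 rat, and every phase 2 rat above every phase 3 rat, in Calm3. The differences were -0.46 ± 0.0914 for phase 2 against fed, -1.56 ± 0.0914 for phase 3 against fed and -1.09 ± 0.0914 for phase 3 against phase 2 (log2, SE), of which the last is a 2.13-fold lower level. Rats within a group differed little, with SDs of 0.119, 0.117 and 0.123 in fed, phase 2 and phase 3. With each array centred on its median, the phase 3 difference from fed was -1.40.

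Calm2 was slightly lower in fasted than in fed rats and differed little between the phases. In rats 1 to 4 it measured 10.53, 10.19, 10.49 and 10.61 in fed, 9.69, 9.95, 10.19 and 10.07 at phase 2 and 9.86, 10.34, 9.95 and 10.10 at phase 3. Fed rat 2 was below the highest rat of each fasted group, and the groups overlapped in all 3 comparisons. The differences were -0.48 ± 0.13 in phase 2 and -0.39 ± 0.13 in phase 3 against fed, and 0.09 ± 0.13 between the phases. With each array centred on its median, the phase 3 difference from fed was -0.24. The dimmer probe set of Calm2 gave -0.41, -0.30 and 0.11 for the same comparisons.

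The calmodulin genes thus did not share the direction of Calml3 in these rats. In phase 2 the differences from fed were 3.94 for Calml3, -0.48 for Calm2 and -0.46 for Calm3. In phase 3 they were 1.40, -0.39 and -1.56. Both fasting comparisons use the same fed rats. Levels of the 3 genes are not compared with one another, since each comes from other probes, and whether a probe set of one calmodulin gene also captures transcripts of another was not tested. The arrays' medians over the tested genes were lower by 0.155 in phase 3 and by 0.065 in phase 2 than in fed rats.

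Markers of other cells were measured beside the members, as Calml3 is known from epithelia. Over all genes 9.66% were called higher and 15.5% lower than fed in phase 2, and 21.1% and 24.3% in phase 3. Of 13 measured markers of keratinocytes and stratified epithelium (22 listed), 1 was called higher in phase 2 and 0 lower, and in phase 3 2 were higher and 0 lower. The mean level of that list lay between 5.13 and 5.22 in fed, 5.16 and 5.36 at phase 2 and 5.21 and 5.47 at phase 3. The member called in both phases was Itgb4, an integrin of hemidesmosomes, which rose by 0.56 in phase 2 (limma adjusted p = 0.00294) and by 0.59 in phase 3 (adjusted p = 0.000783), and its part in the Calml3 result was not tested. The keratin Krt14 differed by 0.07 (limma adjusted p = 0.742) and Krt1 by 0.06 (adjusted p = 0.725) in phase 2. Of 14 markers of simple epithelium, 1 was higher and 3 lower in phase 2, and the means lay between 5.18 and 5.25 in fed and between 5.01 and 5.28 in phase 2 rats. In phase 3 4 of them were higher and 2 lower, with means between 5.22 and 5.43. Prom1, a membrane protein of epithelia and progenitors, rose by 0.48 in phase 2 (adjusted p = 0.00255) and by 2.18 in phase 3 (adjusted p = 9.7e-10). The keratins Krt8 and Krt19 fell by 1.09 and 0.88 in phase 2 and by 1.47 and 1.82 in phase 3. Krt18 fell by 0.52 in phase 2. Epcam, the defining surface protein of epithelium, had a fed level of 2.87 and differed by 0.20 in phase 2 (adjusted p = 0.519). Mesothelial markers were lower in 6 of 10 cases in phase 2, with means of 8.04 to 8.19 in fed and 7.52 to 7.78 in phase 2 rats, opposite to Calml3. Krt8, Krt18 and Krt19 are in this list too and are counted in both. Of 13 markers of epididymis and testis 0 were called in phase 2 by limma (smallest adjusted p 0.107, that of Odf1). In phase 3 4 were higher, with means of 4.14 to 4.25 in fed and 4.28 to 4.56 in phase 3 rats. Lcn5, which was not called, ran from 3.63 to 6.11 in phase 3 and from 3.43 to 3.63 in fed rats. Epcam ran from 2.93 to 4.05 and from 2.77 to 2.96. Adam7 (3.27 to 3.51) and Crisp1 (3.58 to 3.72) were less spread in phase 3. The part of epididymal tissue in the spread of Calml3 was not tested.

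In phase 3, where Calm3 was lowest, 11 of 12 adipocyte markers were lower and 0 higher than in fed rats. For fibroblasts and progenitors 8 of 10 markers were lower and 2 higher. Over all genes 24.3% were lower and 21.1% higher. The mean of the fibroblast list lay between 10.60 and 10.76 in fed and between 8.87 and 9.39 in phase 3 rats. The part of cell content in the lower level of Calm3 was not tested.

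The genes whose values ran closest to those of Calml3 were also high in phase 2, with lower means in phase 3. Closeness was the root mean square difference over the 12 arrays, with every gene taken relative to its own fed mean, so the shared pattern is what the choice used. The nearest was Zim1, an imprinted zinc finger gene, at 0.91, and next was Trhde, the enzyme that degrades thyrotropin-releasing hormone, at 0.97. The median over the other 14505 genes was 2.45. B3galt1, a galactosyltransferase, followed at 1.04, Gulo, the vitamin C synthesis enzyme, at 1.08 and the aminotransferase gene Gpt2 at 1.13. The amino acid transporter gene Slc16a10, the matrix gene Tnr and the chemokine gene Cxcl13 lay at 1.25, 1.25 and 1.26.

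In Trhde the log2 levels were 6.78, 6.81, 6.77 and 6.75 in fed, 9.36, 9.39, 8.97 and 9.09 at phase 2 and 8.93, 7.61, 7.07 and 6.94 at phase 3. Zim1 measured 7.85, 6.83, 5.86 and 5.86 in phase 3 rats 1 to 4. In both genes, as in Calml3, rats 1 and 2 of phase 3 were above rats 3 and 4. Gulo kept more of its level, with a phase 3 difference from fed of 3.18 against 4.19 in phase 2. So did B3galt1, at 2.25 against 2.66, and Gpt2, at 1.86 against 2.18. The phase 2 and phase 3 rats overlapped in B3galt1, Gulo, Gpt2 and Cxcl13 and did not in Zim1, Trhde, Slc16a10 and Tnr. Over all genes 26.3% did not overlap between the phases.

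**Figure D2:**
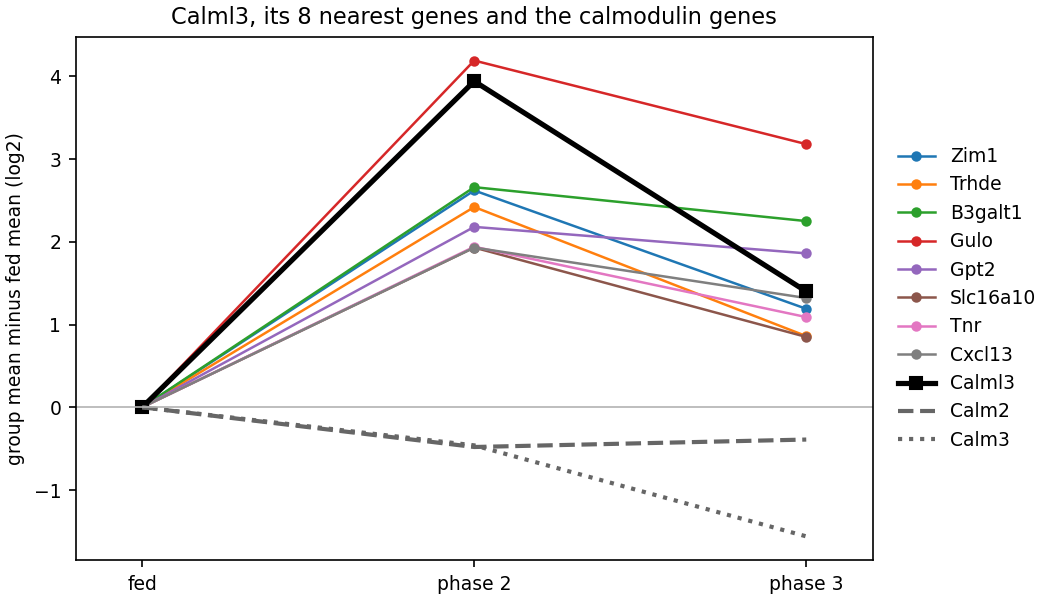
Group means of Calml3, its 8 nearest genes, Calm2 and Calm3 relative to the fed mean (log2, vertical axis) in fed, phase 2 and phase 3 rats (n = 4 per point). Calml3 (black squares) is at 3.94 in phase 2 and 1.40 in phase 3, the 8 genes are also higher in phase 2 than in phase 3, and Calm2 and Calm3 lie below 0.

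Nearest to Calm3 by the same measure were Naaa, a lysosomal amidase gene, Col4a1, a basement membrane collagen gene, and Sdc2, a syndecan gene, each at 0.13 where the median gene was at 0.99. Naaa differed from fed by -0.42 in phase 2 and -1.50 in phase 3, and Col4a1 by -0.55 and -1.53. Nearest to Calm2 were Hebp1 and Trappc4, both at 0.10, and the proteasome subunit gene Psma4 at 0.11, where the median gene was at 0.48.

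Genes beside Calml3 on the chromosome gave differing values. Of the 5 protein-coding genes on either side in RefSeq order (assembly GRCr8), 7 had a value, and 2 of them passed the test in phase 2, where 25.2% of all genes did. Net1, a guanine nucleotide exchange factor gene located 2 genes away, rose from 10.03 ± 0.251 to 11.28 ± 0.149 (SD, n = 4) in phase 2, by 1.26 ± 0.142 (limma adjusted p = 2.45e-05), and was at 1.07 ± 0.142 in phase 3 (adjusted p = 2.39e-05). Its phase 3 level did not pass the test against phase 2 (-0.19, adjusted p = 0.366). Akr1c15, an aldo-keto reductase gene located 5 genes away, rose by 0.56 in phase 2 (adjusted p = 0.0278) and by 2.88 in phase 3 (adjusted p = 1.17e-08), highest in phase 3 where Calml3 was not. The other 5, namely Ucn3, Tubal3, Gdi2, Ankrd16 and Fbh1, did not pass the test in phase 2, with differences between -0.13 and 0.13. These genes were taken by position, outside the naming rule.

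**Figure D3:**
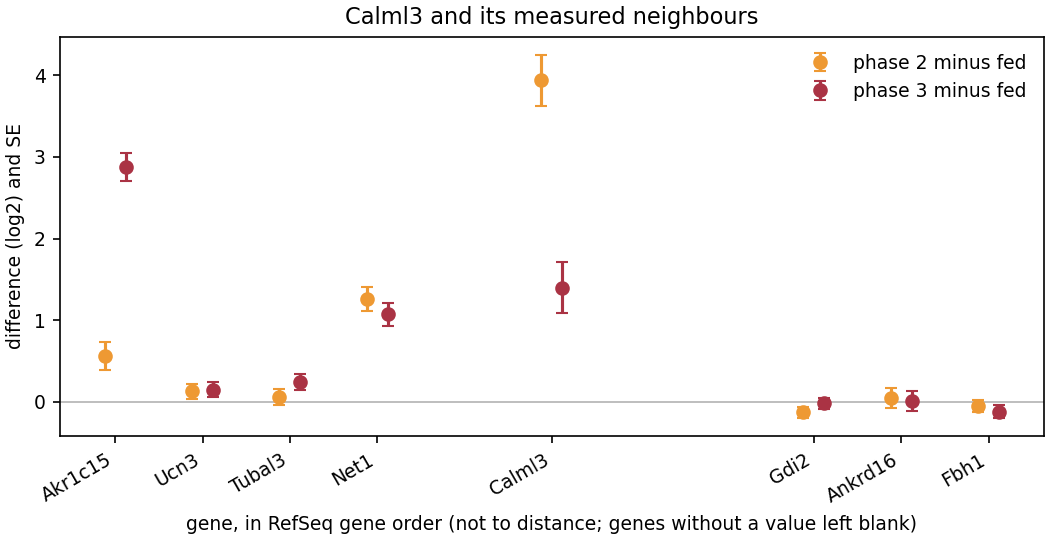
Differences from fed (log2, with SE, n = 4 per group) of Calml3 and its 7 measured neighbours, in RefSeq gene order and not to distance, for phase 2 and phase 3. Net1 and Akr1c15 lie above 0 with Calml3, while Ucn3 and Tubal3 on the same side, and Gdi2, Ankrd16 and Fbh1 on the other, lie between -0.13 and 0.24.

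Beside Calm3, 3 of 8 measured neighbours passed the test in phase 2, where 25.2% of all genes did. Ptgir, the prostacyclin receptor gene next to it, rose by 0.87 ± 0.124 in phase 2 (limma adjusted p = 0.00018) and by 0.99 ± 0.124 in phase 3 (adjusted p = 1.44e-05), opposite in sign to Calm3. Ppp5c, a protein phosphatase gene, and Ccdc8 were lower, as Calm3 was: Ppp5c fell by 0.29 and 0.49 (adjusted p = 0.00661 and 4.85e-05) and Ccdc8 by 0.38 and 0.26 (adjusted p = 0.0102 and 0.0403) in phases 2 and 3. Of 6 measured neighbours of Calm2 none passed in phase 2 by limma (smallest adjusted p 0.125, that of Ttc7a), and Ttc7a fell by 0.37 in phase 3 (adjusted p = 0.00784).

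Partners and relatives of calmodulin, other EF-hand proteins and calcium channels and pumps were tested from 7 lists of 208 entries, of which 181 were measured. In phase 2 against fed, 27 rose and 31 fell (14.9% and 17.1%), where 9.66% of all genes rose and 15.5% fell, 25.2% in all. In phase 3 against fed, 32 rose and 60 fell (17.7% and 33.1%), where 21.1% of all genes rose and 24.3% fell, 45.4% in all. In phase 3 against phase 2, 18 rose and 48 fell (9.94% and 26.5%), where 12.8% of all genes rose and 15.1% fell, 27.9% in all. The balance depended on the scaling: after each array was centred on its median, 37 rose and 30 fell in phase 2, and in phase 3 64 rose and 49 fell against fed and 32 and 33 against phase 2. Without phase 3 rat 4, 11 rose and 40 fell from phase 2 to phase 3. The median over the listed genes was 0.02, -0.02 and -0.04 in the 3 comparisons, beside 0.01, 0.05 and 0.03 over all genes.

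Among the close relatives of calmodulin few genes passed. The share was 6.67% in phase 2 and also in phase 3 against fed, beside 25.2% and 45.4% of all genes. Most of these relatives were dim, and only 3 remained without the dimmest 40% of genes. Of those 3, 0 were called in phase 2 and 2 fell in phase 3, so the low share cannot be separated from low level. Of 15 measured, 1 rose in phase 2. It was Cabp5, a calcium sensor of neurons, which went from 4.28 in fed to 4.62, by 0.34 (limma adjusted p = 0.031, alternatives 0.0171 to 0.105). At this level the filter on dim genes leaves Cabp5 out. Leaving out fed rat 1, fed rat 2 or phase 2 rat 1, 2 or 4 removed the call, as did the replicate block. In phase 3 1 gene fell and 0 rose, but 6 rose and 1 fell with centred arrays, and 2 to 4 genes were called without fed rat 2, phase 2 rat 1 or phase 3 rat 1 or 2. The gene that fell was Calml4, a calmodulin-like gene of brush borders, from 6.94 in fed to 5.20 in phase 3, by 1.74 ± 0.212 (adjusted p = 1.07e-05). Its log2 values were 7.05, 7.22, 6.78 and 6.71 in fed, 6.70, 6.01, 6.41 and 6.49 at phase 2 and 5.63, 5.23, 4.50 and 5.42 at phase 3, so phase 3 lay below both other groups. Over all genes 41.9% did not overlap between phase 3 and fed, and 26.3% between the phases. In phase 2 Calml4 differed by -0.54 (adjusted p = 0.0808). Against phase 2, the centrin gene Cetn2 fell by 0.61 (adjusted p = 0.0116) and the muscle troponin gene Tnnc2 rose by 0.37 (adjusted p = 0.00759).

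Of 28 calmodulin-dependent kinases and their partners, 5 rose and 5 fell in phase 2, and in phase 3 5 rose and 10 fell, which with centred arrays became 13 and 8. The share called was 35.7% and 53.6%, beside 25.2% and 45.4% of all genes. Dapk1, the death-associated protein kinase, measured 9.51, 9.51, 9.43 and 9.28 in fed, 10.26, 10.15, 9.90 and 10.00 at phase 2 and 10.90, 11.31, 10.93 and 11.32 at phase 3. It rose at each step, by 0.64 ± 0.115 in phase 2 (adjusted p = 0.000924) and by 1.68 ± 0.115 in phase 3 against fed (adjusted p = 3.87e-08, limma). Phkg1, the catalytic subunit gene of muscle phosphorylase kinase, of which calmodulin is itself a subunit, rose by 0.65 and 1.33, while Phkb, a regulatory subunit gene of the same enzyme, fell by 1.14 in phase 3. Camkk2, the kinase upstream of CaMKI, CaMKIV and AMPK, was 6.86, 7.02, 6.84 and 7.0 in fed and 6.45, 6.20, 6.43 and 6.34 in phase 2 rats. It fell by 0.58 ± 0.0803 in phase 2 (adjusted p = 0.000142) and by 0.51 ± 0.0803 in phase 3 (adjusted p = 0.000119).

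Camk2d, a calmodulin-dependent kinase II gene, fell by 0.34 in phase 2 (limma adjusted p = 0.0155, alternatives 0.00439 to 0.0532), which missed the threshold when phase 2 rat 2 or 4 was left out. Its phase 3 fall of 0.30 did not hold with centred or quantile-normalised arrays (adjusted p up to 0.151). Mylk, the myosin light chain kinase of smooth muscle, rose by 0.64 in phase 2 (adjusted p = 0.0123) and by 0.69 in phase 3 (adjusted p = 0.00401). Smooth muscle markers moved with it: 9 of 9 rose in phase 2 and 8 in phase 3, where 9.66% and 21.1% of all genes rose. Their mean lay between 8.09 and 8.70 in fed, 9.12 and 9.97 at phase 2 and 9.05 and 9.68 at phase 3. Their part in the Mylk result was not tested. Eef2k, the kinase that slows translation elongation, differed by 0.09 and 0.13 (adjusted p = 0.691 and 0.472). Itpkb, an inositol trisphosphate kinase gene, fell by 1.07 from phase 2 to phase 3 (adjusted p = 8.77e-05).

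Calcineurin, its regulators and NFAT factors gave 5 rises and 3 falls among 18 genes in phase 2 (2 rises without fed rat 4, and 3 without fed rat 3 or phase 2 rat 1), 4 and 3 in phase 3, and 3 and 3 between the phases. The called share was 44.4%, 38.9% and 33.3%, where it was 25.2%, 45.4% and 27.9% over all genes. Between the phases 1 rose on leaving out phase 2 rat 3 or 4 or phase 3 rat 4, 5 fell on leaving out phase 3 rat 1, and 1 rose and 4 fell with the replicate block. Nfatc4, a transcription factor that calcineurin activates, rose from 6.97 in fed to 7.74 in phase 2 by 0.78 ± 0.0849 (limma adjusted p = 1.88e-05) and fell again by 0.88 in phase 3 (adjusted p = 4.92e-06). Its phase 3 level of 6.87 did not pass the test against fed (-0.10, adjusted p = 0.35). Rcan1 and Rcan3, regulators that bind calcineurin, fell by 0.73 and 0.39 in phase 2 and by 0.54 and 0.46 in phase 3. Rcan1 values were 8.87, 9.09, 8.84 and 9.22 in fed, 8.50, 8.02, 8.49 and 8.12 at phase 2 and 8.39, 8.21, 8.79 and 8.47 at phase 3. Ppp3ca, a catalytic subunit of calcineurin, differed by 0.27 in phase 2 (adjusted p = 0.0382, alternatives 0.00641 to 0.118), which missed the threshold when fed rat 1, 3 or 4 or phase 2 rat 1 or 2 was left out. Crtc2, a CREB coactivator that calcineurin dephosphorylates, rose by 0.63 in phase 3 (adjusted p = 1.46e-05), and Mef2d, a muscle and neuronal factor, by 0.57 (adjusted p = 5.25e-05).

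Among the 9 calmodulin-stimulated enzymes of cyclic nucleotides and nitric oxide, 3 rose and 0 fell in phase 2, and 3 rose and 1 fell in phase 3. These are 33.3% and 44.4% of the list, where 25.2% and 45.4% of all genes were called. The phase 2 count was 1 when rat 1, 2 or 4 of the fed group or rat 2 or 3 of phase 2 was dropped, and 5 with centred arrays. Nos3, the endothelial nitric oxide synthase, rose by 0.41 ± 0.079 (limma adjusted p = 0.00161) and 0.43 ± 0.079 (adjusted p = 0.000456) in phases 2 and 3. Endothelial markers rose beside it in 7 of 9 cases in phase 2, where 9.66% of all genes rose. Their means were 9.30 to 9.40 in fed and 9.65 to 9.97 in phase 2 rats, and their part in the Nos3 result was not tested. Pde1b, a calmodulin-dependent phosphodiesterase gene, was at 9.18, 9.01, 9.27 and 9.09 in fed and 9.65, 9.97, 10.25 and 9.70 in phase 2 rats, a rise of 0.76 (adjusted p = 0.0316, alternatives 0.000894 to 0.0937). It missed the threshold once fed rat 1, 2 or 4 or phase 2 rat 2 or 3 was left out. Pde1c, at a low fed level of 4.30, differed by 0.22 (adjusted p = 0.0475, alternatives 0.0174 to 0.141). That call was lost in 12 of its 19 alternatives, among them without any 1 of fed rats 1, 2 and 4, phase 2 rats 2, 3 and 4 and phase 3 rats 1, 2 and 4. In phase 3, Pde1a rose by 0.63 (adjusted p = 0.00631), and Adcy3, a calmodulin-sensitive adenylyl cyclase gene, fell by 0.45 (adjusted p = 0.000316). Nos1, the neuronal nitric oxide synthase, rose by 0.40 from a low fed level of 5.05 (adjusted p = 0.00309). The filter on dim genes leaves Pde1c and Nos1 out.

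Of 28 proteins that buffer calmodulin or bind it as scaffolds, 6 fell and 1 rose in phase 2, and 11 fell and 2 rose in phase 3 (8 and 7 with centred arrays). The share called was 25% and 46.4%, near the 25.2% and 45.4% of all genes. Marcks, a membrane protein that sequesters calmodulin and phosphoinositides, was 10.77, 10.76, 10.95 and 10.86 in fed, 9.89, 9.72, 9.92 and 9.71 at phase 2 and 8.79, 8.85, 8.16 and 8.64 at phase 3. Its differences from fed were -1.02 ± 0.128 and -2.22 ± 0.128 (limma adjusted p = 5.87e-05 and 8.19e-09). Myo1c, a myosin with calmodulin light chains that helps bring the glucose transporter GLUT4 to the adipocyte surface, fell by 0.91 ± 0.0833 and 1.68 ± 0.0833 (adjusted p = 3.78e-06 and 2e-09). Gap43, a growth cone protein that binds calmodulin at low calcium, fell by 1.21 and 1.25, and the adducin gene Add1 by 0.49 and 0.98. Of 7 markers of nerve and Schwann cells, a list that holds Gap43 itself, 2 were called lower in phase 2 and 4 in phase 3. Over all genes 15.5% and 24.3% were lower. In phase 2 these were Gap43 and S100b (-1.30), 0 were higher and the median of the list was -0.02. S100b had a fed level of 11.17, and Sox10, Uchl1 and Th were called in neither phase against fed. Markers of this list had means of 6.73 to 6.97 in fed, 6.42 to 6.57 in phase 2 and 5.98 to 6.20 in phase 3 rats. Their part in the Gap43 result was not tested.

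Myo10, the myosin known as a partner of the Calml3 protein, was lowest in phase 2, where Calml3 was highest, and above fed in phase 3, as Calml3 was. It measured 8.99, 8.95, 8.90 and 8.94 in fed, 8.80, 8.76, 8.39 and 8.33 at phase 2 and 9.63, 9.22, 9.29 and 9.41 at phase 3. All phase 2 rats lay below and all phase 3 rats above the fed rats, where 31% and 41.9% of all genes did not overlap with fed. From phase 2 to phase 3 it rose by 0.82 ± 0.117 (limma adjusted p = 0.000134), and its phase 3 rise over fed was 0.44 (adjusted p = 0.00664). The phase 2 difference of -0.38 had an adjusted p of 0.0299 (alternatives 0.0161 to 0.094). It missed the threshold with centred or quantile-normalised arrays and on leaving out any single fed rat or either of phase 2 rats 3 and 4.

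**Figure D4:**
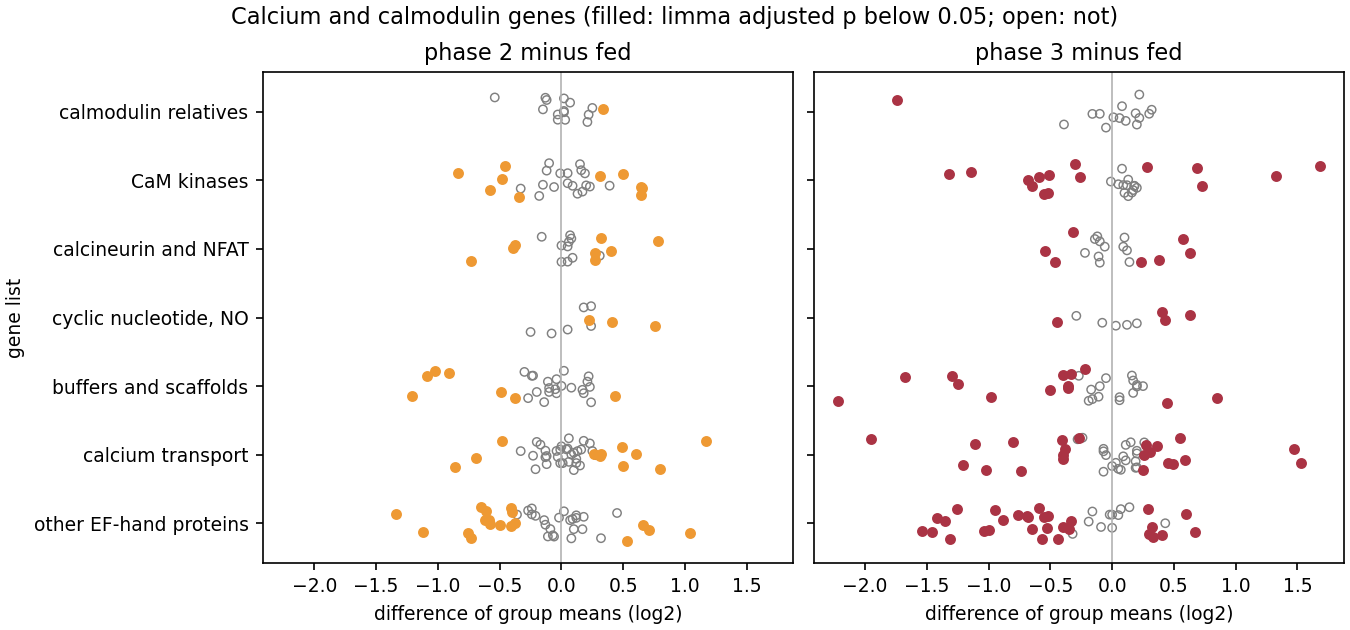
Difference from fed (log2, horizontal axis) of each listed calcium and calmodulin gene, by list (vertical axis), in phase 2 and phase 3; points are spread vertically at random within a list. Filled points passed limma's test (adjusted p below 0.05), 58 of 181 genes in phase 2 and 92 in phase 3, with the lowest value that of Marcks (-2.22) and the highest that of Dapk1 (1.68) in phase 3.

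Calcium channels, pumps and stores were mixed, with 8 rises (5 when fed rat 3, fed rat 4 or phase 2 rat 1 is dropped) and 3 falls among 42 genes in phase 2 and 11 of each in phase 3 (19 and 8 with centred arrays). Called were 26.2% and 52.4% of them, beside 25.2% and 45.4% of all genes. Itpr1, the inositol trisphosphate receptor that releases calcium from the ER, measured 8.89, 8.89, 8.57 and 8.61 in fed, 9.79, 9.50, 9.47 and 9.37 at phase 2 and 10.52, 10.48, 9.75 and 10.32 at phase 3. It rose by 0.80 ± 0.156 and 1.53 ± 0.156 (limma adjusted p = 0.00181 and 1.99e-06). Mcu, the pore of the mitochondrial calcium uniporter, fell by 0.86 ± 0.106 and 1.11 ± 0.106 (adjusted p = 5.73e-05 and 1.1e-06), and the cation channel gene Trpv1 by 0.69 and 1.02. Kcnn3, a potassium channel that opens through its bound calmodulin, was 9.61, 9.60, 9.77 and 9.74 in fed, 9.82, 10.04, 9.87 and 10.00 at phase 2 and 8.09, 7.85, 7.66 and 7.33 at phase 3. The difference of phase 3 from phase 2 was -2.20 ± 0.13 (adjusted p = 6.62e-08). Atp2b4, a plasma membrane calcium pump that calmodulin activates, fell by 1.26 over the same step (adjusted p = 7.23e-05) and Trpc1 by 0.57 (adjusted p = 0.000538).

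Among the other EF-hand proteins, which bind calcium without being calmodulins, more genes fell than rose. In phase 2 14 of 41 fell and 4 rose, in phase 3 23 fell and 7 rose against fed (3 or 4 rose when rat 3 or 4 of the fed group, or rat 2 or 4 of phase 3, is dropped), and 21 fell and 6 rose against phase 2 (15 and 2 without phase 3 rat 4). In the same order 43.9%, 73.2% and 65.9% of the list were called, where 25.2%, 45.4% and 27.9% of all genes were. Most calls lay among the brighter genes. Without the dimmest 40% of genes 3527, 5660 and 4028 were called, beside 3649, 6589 and 4046 with them. The list was not matched to all genes by level, so its excess over them is not exact. With centred arrays the counts were 14 falls and 7 rises, 21 and 10, and 14 and 7. The median over the list was -0.40 in phase 3 against fed, beside 0.05 over all genes. Rcn3 and Calu, calcium-binding proteins of the secretory pathway, fell by 0.65 and 0.76 in phase 2 and by 1.54 and 0.95 in phase 3. Efhd1, a mitochondrial calcium sensor gene, fell by 1.42 in phase 3 and Sparc, a secreted matrix protein, by 1.26 (limma adjusted p = 1.52e-07 and 6.98e-08). In phase 3, 8 of 10 markers of fibroblasts and progenitors were lower and 2 higher. Of 12 adipocyte markers 11 were lower and 0 higher. Over all genes 24.3% were lower and 21.1% higher. The part of cell content in these falls was not tested.

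Smoc1, a matrix protein related to Sparc, had a course like that of Calml3 up to phase 2. It was 9.28, 9.43, 9.65 and 9.39 in fed, 10.78, 10.28, 10.34 and 10.51 at phase 2 and 9.42, 8.80, 8.71 and 9.09 at phase 3. It rose by 1.04 ± 0.151 in phase 2 (limma adjusted p = 0.0002) and fell by 1.47 ± 0.151 from there to phase 3 (adjusted p = 7.73e-06). Its phase 3 level was below fed by 0.44 (adjusted p = 0.0293, alternatives 0.00341 to 0.111), which missed the threshold with centred arrays and when rat 2 or 3 of either group was left out.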

How the data were processed

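The authors deposited log2 values for each probe set. They come from RMA, per the submitters' processing notes, which also name GCOS and Affymetrix Expression Console 1.1; the RMA settings are not given in the sources used here. Array medians lay between 6.026 and 6.1319. Precision is limited by how many arrays there are, and scan dates and batches were not used here. Probe sets were named from the platform annotation (15310 with 1 gene, 323 with several, 13582 with none), and 14481 of the 14506 genes matched RefSeq GRCr8 by Entrez number. The labels' extraction protocol names liver, while every other label names adipose tissue, and the mean of 11 hepatocyte markers lay between 4.53 and 4.86 on all arrays. Among them Alb had group means of 8.33 (fed), 9.62 (phase 2) and 6.73 (phase 3) and differed by -2.89 between the phases (adjusted p = 0.00234).

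All 12 arrays entered 1 model with a mean per group (lmFit and eBayes, limma 3.58.1, R 4.3.3), and p-values were adjusted over all 14506 genes by the Benjamini-Hochberg method, with a call below 0.05. The steps were tested on simulated data. Python 3.11.15 and pandas 2.3.3 made the tables. The members and lists were chosen with earlier results of these data known. Up to 3 called genes with the smallest adjusted p were named per list and comparison, with 8 nearest genes for Calml3 and 3 each for Calm2 and Calm3, and Myo10, Camkk2, Camk2d, Ppp3ca, Pde1a, Adcy3, Nos3, Mylk and Eef2k always. The 20 alternatives changed the normalisation, the filter on dim genes, the prior, the samples, the probe sets or the replicate block.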

Additional observations from a re-analysis of the deposited data

Results flagged for a closer look

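For the members and the genes named from the lists, 129 sets of 4 rats were looked at. In 5 of them 1 rat stood apart from the rest of its group by Dixon's criterion, where chance gives about 1 in 20 sets. The nearest genes and the chromosome neighbours were not looked at in this way. None of them was a set of Calml3, Calm2 or Calm3. In phase 3 rat 3, Camk2d was at 7.76 (next value 7.97) and Ppp3ca at 9.54 (next 9.74). Phkg1 was at 8.18 in phase 3 rat 4 (next 7.76). Cetn2 was at 8.46 in phase 2 rat 1 (next 8.71) and Rcn3 at 8.11 in phase 2 rat 2 (next 8.46).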

How the results depend on the processing

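Over the 20 alternatives Calml3 differed from fed by 3.83 to 4.07 in phase 2 and by 1.09 to 1.67 in phase 3, and by -2.85 to -2.27 between the phases, the same ranges as with 1 rat left out. Calm3 was at -0.52 to -0.40, -1.60 to -1.40 and -1.14 to -1.0, with -1.40 from centred arrays, the value that moved by more than 1 SD, and at -1.60 to -1.51 for phase 3 against fed with 1 rat left out. Calm2 was at -0.57 to -0.38, -0.48 to -0.24 and -0.01 to 0.18, so its sign between the phases was not fixed. With the replicate number as a block 3539, 6526 and 3995 genes were called in the 3 comparisons (each phase with fed, then the phases), where the model without it called 3649, 6589 and 4046. The numbers do not pair the rats: same-numbered rats of different groups correlated at -0.155 to 0.188 in their deviations, and 2 of 12 correlated best with their own number. Leaving out 1 rat gave 2850 to 4134, 5901 to 6656 and 3347 to 4125 calls. With centred arrays the share of calls that were higher went from 38.4% to 53%, from 46.5% to 69.6% and from 45.8% to 64.9%, and with quantile normalisation the phase 2 share was 49.7%. Of 2382 repeats for single list genes, 2289 kept their side of the threshold, 53 lost a call, 40 gained one and 0 reversed a call. Without detection calls, low levels such as that of Calml3 in fed rats have no known distance from background.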
